A study of Mus musculus with 4 samples.

Results

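The unfolded protein response (UPR) and the chaperones of the endoplasmic reticulum (ER) were followed in liver group 1 innate lymphoid cells (ILC1s) lacking Cd200r. The 33 genes were chosen by name for their known roles, as sensors, transcription factors, folding enzymes or degradation factors of the ER. Earlier results of these data were known when the genes were chosen. Of the 33 genes, 32 had a row among the 18804 genes of the deposited table, and Chac1 was not analysed here. A mean of at least 1 FPKM (a read count corrected for gene length and library depth) over all libraries was reached by 29 of them, which were tested among 9476 genes. Trib3, Asns and Derl3 did not reach this filter.

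RNA-seq was performed on ILC1s from Cd200r knockout mice (replicates 1 and 2) and from WT mice (replicates 1 and 3), all from the liver, at homeostasis and 5 to 8 weeks old. CD200R, the protein that Cd200r encodes, is an inhibitory receptor of the immunoglobulin superfamily, and ILC1s are tissue-resident, cytotoxic relatives of natural killer (NK) cells. The title of the series ties the receptor to the cytotoxicity of ILC1s. The sources used here give neither the deleted part of the allele, nor the sort, nor whether a library came from 1 mouse or a pool, so p-values measure the spread between libraries, which may be technical.

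Proteins that enter the secretory pathway are folded in the ER by chaperones, lectins and disulfide isomerases. When unfolded protein accumulates, the membrane sensors IRE1, PERK and ATF6 start the UPR through the transcription factors XBP1, ATF4 and cleaved ATF6, which induce folding enzymes and components of ER-associated degradation (ERAD). Cytotoxic lymphocytes pass granzymes, perforin and receptors through this compartment. ATF4 and its target CHOP are also induced by other stresses that phosphorylate the initiation factor eIF2, a shared route called the integrated stress response (ISR).

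Cd200r1 was measured at 110.7 and 103.7 FPKM in the knockout libraries, against 161.5 and 173.3 FPKM in WT. Its transcript was thus present in both groups (log2 fold change −0.64, SE 0.09, limma adjusted p = 0.0045). Summed FPKM was 511415 and 523717 in knockout and 513418 and 516000 in WT. Low values of single-exon genes gave an estimate of depth, at which 1 FPKM stood for 41.5 and 39.3 reads per kilobase in knockout and 39.4 and 39.1 in WT. The 9 ILC1 markers summed to 4414 and 4411 FPKM in knockout and 4717 and 4933 FPKM in WT. All 9 were tested, 0 rose and 1, Cd200r1 itself, fell. They ranged from Ncr1, at 1486 and 1505 FPKM in knockout and 1653 and 1748 FPKM in WT, down to Tnfsf10 and Il7r, which were at or above 14.1 FPKM in each library. Itga1 measured 42.2 and 32.8 FPKM in knockout and 48.3 and 53.0 FPKM in WT (log2 fold change −0.43, limma adjusted p = 0.138). Of the 9 ILC1 markers, 1 had a positive log2 fold change, which was Il7r (0.27), and the median was −0.10. Transcripts of other cells were also present. The 12 macrophage markers summed to 638.8 and 950.2 FPKM in knockout and 243.1 and 221.4 FPKM in WT, and 7 of the 9 tested rose. The 8 erythroid markers summed to 12483 and 14027 FPKM in knockout and 24711 and 26811 FPKM in WT, and 7 of the 7 tested fell. The 11 conventional NK markers summed to 563.0 and 849.7 FPKM in knockout and 340.9 and 334.0 FPKM in WT, and 8 of the 10 tested rose. The 13 mitochondrially encoded genes summed to 12831 and 15138 FPKM in knockout and 6697 and 8481 FPKM in WT, and 11 rose. The 7 neutrophil markers in the table summed to 26.9 and 47.3 FPKM in knockout and 18.8 and 8.55 FPKM in WT, and 2 of the 4 tested, Ngp and Camp, rose. The 8 hepatocyte markers summed to 485.5 and 506.2 FPKM in knockout and 351.1 and 461.9 FPKM in WT. All 8 had positive log2 fold changes, and Fgb rose. Of 7 tested T cell markers Cd6 rose, and of 4 tested dendritic cell markers Itgax fell. The part of these markers in the results was not tested. Plasma and B cells, of which plasma cells hold much ER, were read from 9 of 12 listed markers. These summed to 73.6 and 68.5 FPKM in knockout and 72.8 and 81.1 FPKM in WT. None of the 6 tested passed, and no marker was at 0 in all libraries. The immunoglobulin genes Ighm, Igha and Igkc of this list were not analysed here. In bulk samples, fewer cells of a type and less RNA per cell cannot be told apart.

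Several of these genes share a promoter element. The ER stress response element (ERSE), bound by NF-Y with ATF6 or XBP1, is CCAAT, then 9 bases, then CCACG. Its relative ERSE-II is ATTGG, then 1 base, then CCACG. Both were searched on both strands in RefSeq promoters of GRCm38.p6, from 250 bases before to 50 bases after each annotated start, which were found for 28 of the 32 genes. The entries of Atf6, Hyou1, Manf and Derl1 were missing. An ERSE was found in 9 of the 28 (32.1%), against 37 of 27025 genes (0.137%) with a promoter in the RefSeq table. The 9 were Calr, Canx, Creld2, Derl3, Dnajc3, Hsp90b1, Hspa5, Pdia6 and Syvn1. ERSE-II was found in Dnajb11 and Herpud1 (7.14%), against 12 of all genes (0.0444%). The genes were chosen as known UPR genes, and several are known for these elements, so the shares are a description.

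The following stretches carry the elements of 7 of these 11 genes, 6 folding factors with either orientation of the ERSE and the ERAD gene Herpud1 with an ERSE-II, read along the gene from 5′ to 3′ in GRCm38.p6. Capitals mark the element, and up to 35 bases in lower case flank it on each side. Where the element lies on the opposite strand, as in Creld2 and Calr, the capitals hold its reverse complement, and Hsp90b1 carries an element in each orientation.

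Hspa5, chr2:34771990-34772078, plus strand: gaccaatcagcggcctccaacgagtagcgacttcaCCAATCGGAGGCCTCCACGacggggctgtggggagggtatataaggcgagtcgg
Hsp90b1, chr10:86705603-86705691, minus strand: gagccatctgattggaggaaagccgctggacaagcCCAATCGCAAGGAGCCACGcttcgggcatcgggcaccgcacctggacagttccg
Hsp90b1, chr10:86705498-86705586, minus strand: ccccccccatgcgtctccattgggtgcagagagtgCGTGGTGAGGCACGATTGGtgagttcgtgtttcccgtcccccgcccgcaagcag
Pdia6, chr12:17266456-17266544, plus strand: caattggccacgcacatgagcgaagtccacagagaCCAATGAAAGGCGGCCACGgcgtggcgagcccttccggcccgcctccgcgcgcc
Dnajc3, chr14:118937792-118937880, plus strand: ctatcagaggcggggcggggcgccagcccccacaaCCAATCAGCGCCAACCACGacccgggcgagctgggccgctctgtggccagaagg
Creld2, chr15:88819485-88819573, plus strand: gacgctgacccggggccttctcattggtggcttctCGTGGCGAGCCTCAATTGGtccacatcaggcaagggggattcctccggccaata
Calr, chr8:84847040-84847128, minus strand: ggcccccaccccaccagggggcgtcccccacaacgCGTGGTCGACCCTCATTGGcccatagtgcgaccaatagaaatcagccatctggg
Herpud1, chr8:94386342-94386422, plus strand: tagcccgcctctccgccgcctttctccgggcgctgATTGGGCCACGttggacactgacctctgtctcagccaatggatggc

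In Hspa5 the element lay from 65 to 47 bases before the start, and over the ERSE genes it lay from 212 (Hsp90b1) to 26 (Syvn1) bases before it. The UPRE motif TGACGTGG was found in 0 of the 28 promoters (0.714% of all genes). The CARE motif TGATGNAA, read by ATF4 with C/EBP partners, was found in Asns, Trib3 and Herpud1 (10.7%, against 4.51% of all genes). A missing match says only that these letters are not in the window.

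**Figure D1:**
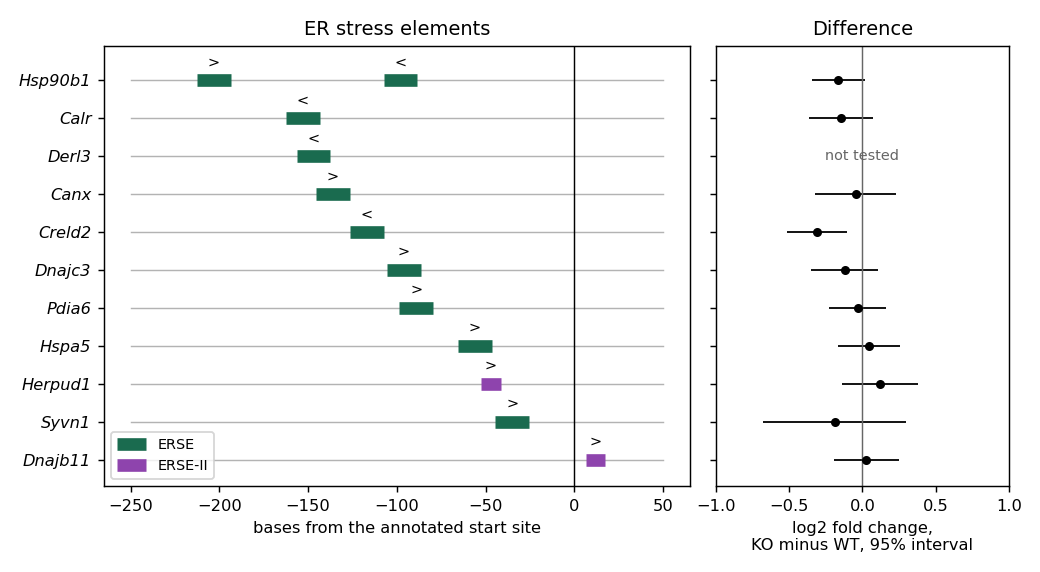
Left, bars mark ERSE and ERSE-II matches in member promoters by distance in bases from the annotated start site, with > or < giving the orientation relative to the gene. Right, the log2 fold change of each gene, knockout minus WT, with its limma 95% interval; of the 10 tested genes with either element, 3 lie above 0 and 7 below, and the interval of Creld2 alone leaves out 0.

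None of the 29 tested members passed the test between the genotypes. Limma called 0 of the 29 at an adjusted p of 0.05, whereas 3.33% of all tested genes were called (316 of 9476). Against that rate a count of 0 in 29 does not set the list apart. At an unadjusted p of 0.05, 5 of the 29 passed (17.2%), close to the 15.5% of all tested genes. The 2 groups did not overlap in 12 of the 29 (41.4%, against 46.0% of all tested genes), with 4 higher and 8 lower in knockout; 21.7% of all tested genes were lower without overlap. The median log2 fold change was −0.03 over the 29 genes and 0.00 over all tested genes, and the median size of the change was 0.12 and 0.16. For mean levels from 30 FPKM upward, the median log2 fold change was −0.03 over 19 members and 0.05 over all 2535 genes. Of these 19, 8 were positive and 11 negative, with 1 higher and 5 lower in knockout without overlap. Of the 2535, 1586 were positive and 949 negative, with 871 higher and 434 lower without overlap. The difference at this level was not tested.

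The limma intervals bounded most of these differences, but only against the spread between 2 libraries per group, which may be technical. For 28 of the 29 genes the 95% interval, unadjusted for the number of genes, lay within a 2-fold change in either direction (all tested genes, 90.8%). It lay within a 1.5-fold change for 22 of 29 (75.9%, against 55.1%). All 19 tested members with a mean of at least 30 FPKM had their interval within 1.5-fold, as had 89.7% of all genes at that level. SE depended on level and ran from 0.08 for Pdia3 to 0.22 for Ern1. These bounds are on the log2(FPKM + 1) scale, which understates changes of low genes such as Ern1, Hyou1 and Atf6. At a pseudocount of 0.1, Ern1 was 0.32 (SE 0.40), Hyou1 −0.87 (SE 0.38) and Eif2ak3 −0.51 (SE 0.24). The counts of intervals above hold for the pseudocount of 1. In data simulated with normal noise at the spread that limma itself fitted, 72.6% of 2-fold changes were recovered by the same fit. That rate is over all genes and holds only where the fitted spread does.

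**Figure D2:**
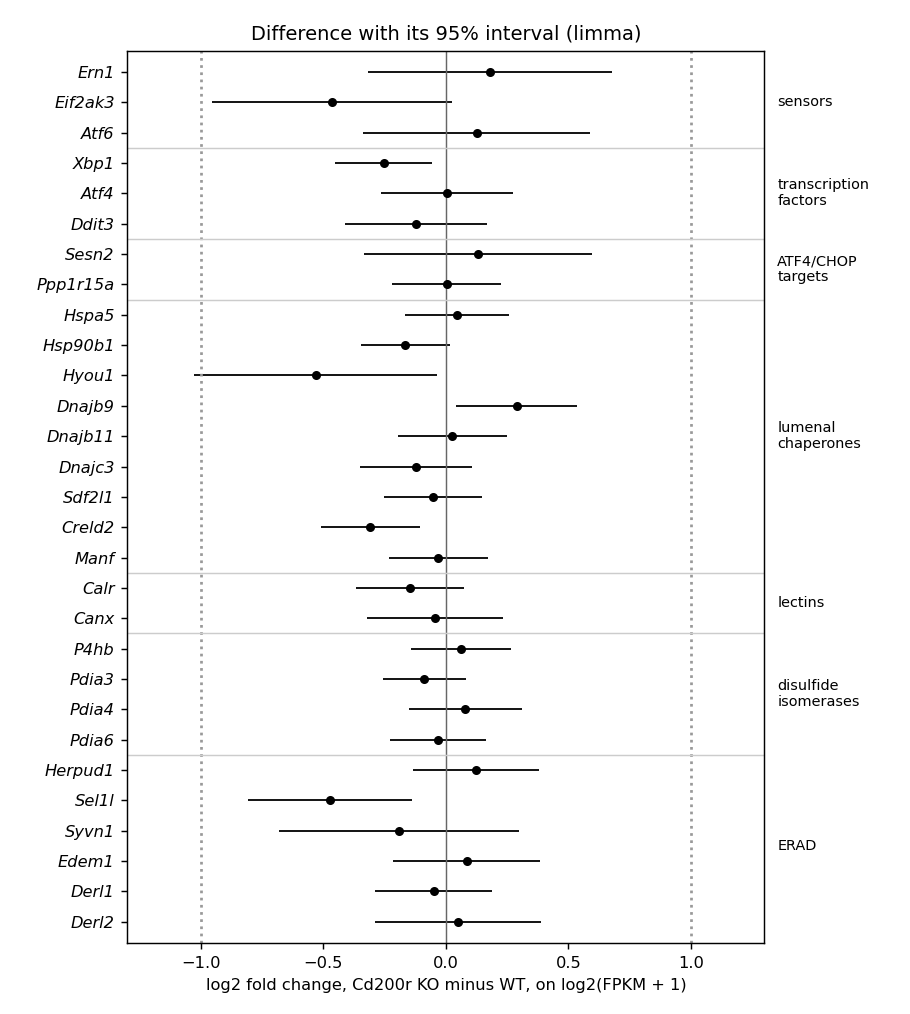
Log2 fold change of the 29 tested genes, knockout minus WT on log2(FPKM + 1), with limma 95% intervals, grouped by role. Dotted lines mark 2-fold changes, and the interval of Hyou1 alone reaches beyond either line.

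**Figure D3:**
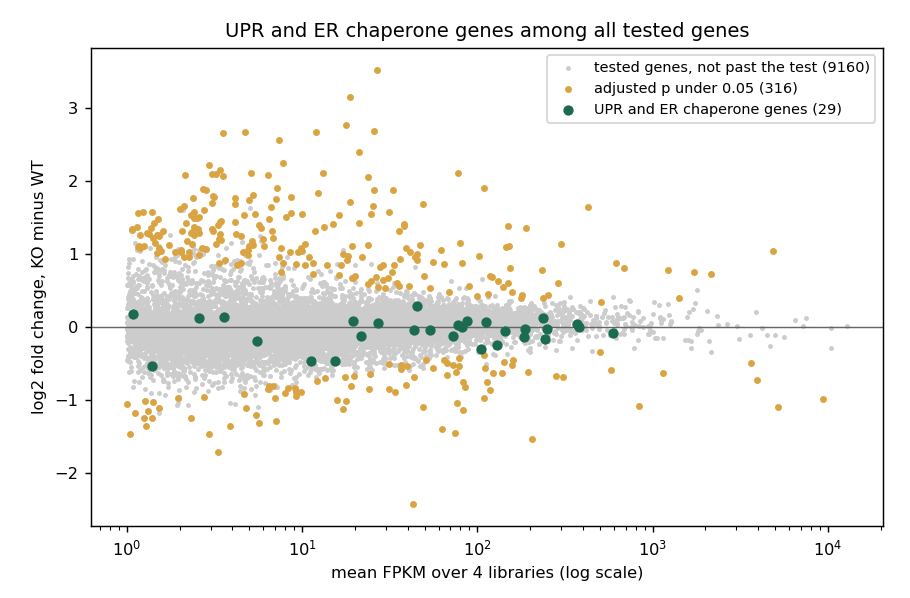
Log2 fold change against mean FPKM for 9476 tested genes, with the 316 called genes and the 29 UPR and ER chaperone genes marked. The 29 lie between −0.53 and 0.29, inside the range of the called genes (−2.44 to 3.53).

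Levels spanned a wide range. On the FPKM scale, which is per length, the order was led by Pdia3 (mean of 593 FPKM over 4 libraries), Ppp1r15a (382 FPKM), Hspa5 (368 FPKM), Pdia6 (250.4 FPKM), Hsp90b1 (243 FPKM) and Herpud1 (237 FPKM). Pdia3 lay above every other member in every library. Ppp1r15a and Hspa5 overlapped between libraries, as did Pdia6, Hsp90b1 and Herpud1, so neighbours in these runs do not differ beyond their spread. The median over the 29 tested members was 77.2 FPKM, against 10.4 FPKM for all tested genes. The 32 genes together held 0.685% and 0.649% of all FPKM in knockout, and 0.675% and 0.709% in WT.

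**Figure D4:**
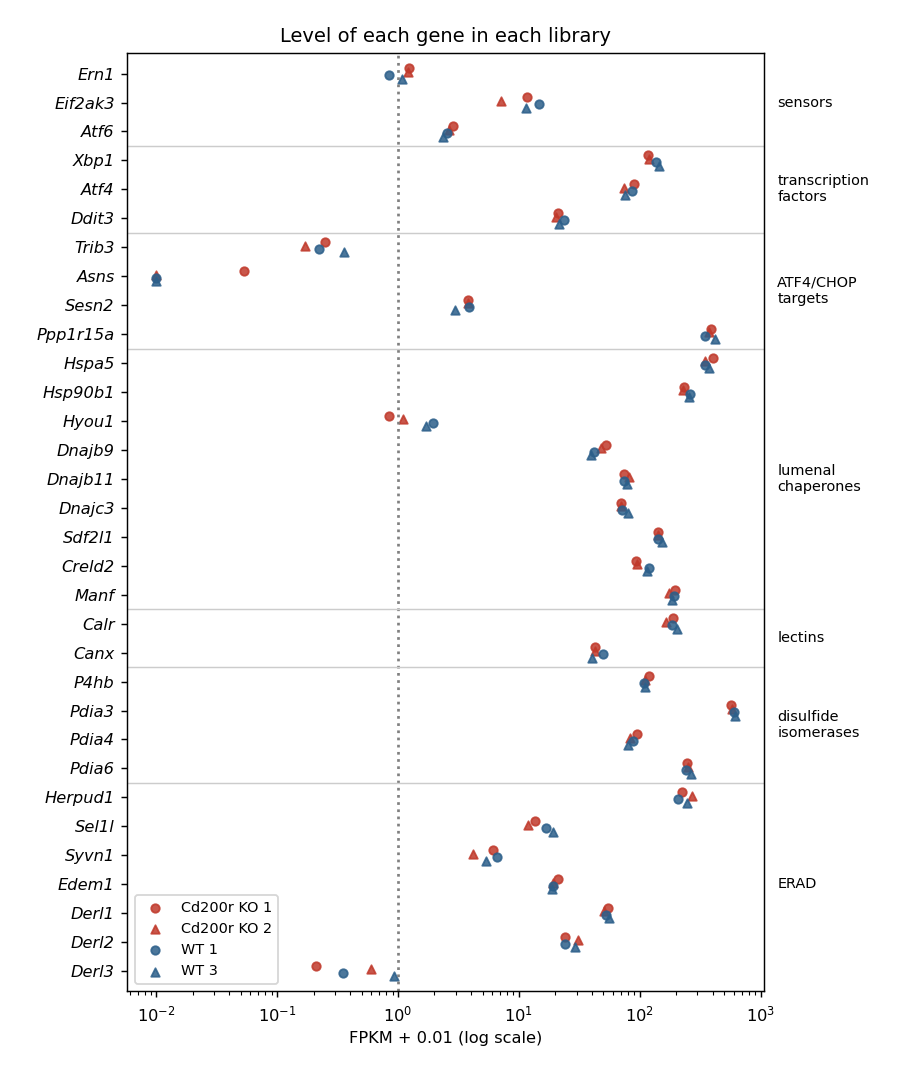
FPKM + 0.01 on a log axis for the 32 genes with a row, grouped by role, with knockout libraries in red and WT libraries in blue (circles, replicate 1; triangles, replicate 2 or 3). Red and blue points lie close together in most rows, the dotted line marks 1 FPKM, and Asns sits at the left edge, listed at 0 in 3 libraries.

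The 3 sensors were among the lower members. Eif2ak3, encoding PERK, the kinase that phosphorylates eIF2, measured 11.6 and 7.08 FPKM in knockout and 14.6 and 11.5 FPKM in WT. The groups overlapped, because knockout replicate 1 lay within the WT values and replicate 2 below them. Its log2 fold change was −0.46 (SE 0.22, limma adjusted p = 0.352). Without knockout replicate 1 it became −0.79 (adjusted p = 0.0384), and without knockout replicate 2 it was −0.14 (adjusted p = 0.848). Over 13 alternatives the adjusted p of Eif2ak3 ran from 0.0384 to 0.915. GENCODE M21 gives 8.05% of its exonic bases to a second gene as well, and reads there cannot be assigned without strand. Ern1, encoding IRE1, the kinase and nuclease that splices Xbp1 mRNA, measured 1.23 and 1.19 FPKM in knockout and 0.832 and 1.08 FPKM in WT. Atf6, the sensor released from the membrane by cleavage, measured 2.86 and 2.64 FPKM in knockout and 2.54 and 2.34 FPKM in WT. In both, the knockout libraries lay above the WT libraries, and neither passed (log2 fold changes 0.18, SE 0.22, and 0.13, SE 0.21).

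The transcription factors were well expressed. Xbp1 (chr11:5520641-5525993), whose spliced product drives chaperone and ERAD genes, measured 116.3 and 118.3 FPKM in knockout and 137.1 and 143.1 FPKM in WT. The knockout libraries lay below both WT libraries, by a log2 fold change of −0.25 (SE 0.09, limma adjusted p = 0.188). Its 95% interval was −0.45 to −0.06, and the sign was negative in all 13 alternatives, with the adjusted p between 0.0972 and 0.578. FPKM summed over the gene does not tell spliced from unspliced Xbp1. Atf4 measured 90.4 and 73.5 FPKM in knockout and 87.0 and 76.0 FPKM in WT, with a log2 fold change of 0.00 (SE 0.12). Atf4 is controlled largely by translation, which these data do not measure. Ddit3, encoding the pro-apoptotic factor CHOP, measured 21.1 and 20.1 FPKM in knockout and 23.4 and 21.6 FPKM in WT (log2 fold change −0.12, SE 0.13). Other annotated genes share 4.73% of the exonic bases of Ddit3. For Atf4 the libraries of the groups interleaved, and for Ddit3 they did not overlap. The summed FPKM of the 3 factors was 219.8 ± 11.3 in knockout and 244 ± 4.91 in WT (SD, n = 2 each; exact permutation p = 0.333, the smallest that 2 against 2 allows).

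Among ATF4 and CHOP targets, levels differed widely. Ppp1r15a, which encodes GADD34, the phosphatase subunit that reverses eIF2 phosphorylation, measured 391.4 and 372.2 FPKM in knockout and 345.8 and 419.6 FPKM in WT. Both knockout values lay between the WT values (log2 fold change 0.00, SE 0.10). Sesn2, a stress-induced regulator of mTORC1, measured 3.79 and 3.75 FPKM in knockout and 3.83 and 2.93 FPKM in WT (log2 fold change 0.13, SE 0.21). Trib3, a pseudokinase induced by ATF4 and CHOP, measured 0.237 and 0.160 FPKM in knockout and 0.211 and 0.350 FPKM in WT. Asns, encoding asparagine synthetase, was listed at 0.0428 FPKM in knockout replicate 1 and at 0 in the other 3 libraries. Ppp1r15a was thus abundant in both genotypes while Trib3 and Asns were near 0 in both.

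Lumenal chaperones and their partners made up the largest group. Hspa5, encoding BiP, the Hsp70 of the ER and the usual readout of the UPR, measured 403.5 and 345.6 FPKM in knockout and 348.3 and 376.3 FPKM in WT. Groups overlapped, and its log2 fold change of 0.04 (SE 0.10, limma adjusted p = 0.880) had a 95% interval of −0.17 to 0.26. Hsp90b1, encoding the ER Hsp90 GRP94, a folding factor for integrins and Toll-like receptors, measured 230.8 and 227.8 FPKM in knockout and 260.6 and 254.0 FPKM in WT. The groups of Hsp90b1 did not overlap (log2 fold change −0.17, SE 0.08, adjusted p = 0.373), and 15.7% of its exonic bases are shared with other annotated genes.

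The Hsp40 cochaperones that hand clients to BiP differed among themselves in sign. Dnajb9 (chr12:44205897-44210068) measured 52.5 and 47.7 FPKM in knockout and 42.1 and 39.5 FPKM in WT. Both knockout libraries lay above both WT libraries, and Dnajb9 had the largest positive log2 fold change of the 29 genes (0.29, SE 0.11, 95% interval 0.04 to 0.54, adjusted p = 0.242). It was positive in all 13 alternatives, from 0.22 to 0.36. Dnajb11 measured 74.7 and 81.2 FPKM in knockout and 74.5 and 78.5 FPKM in WT, with overlap (log2 fold change 0.03, SE 0.10). Dnajc3, which also restrains PERK, measured 69.5 and 69.8 FPKM in knockout and 71.6 and 80.3 FPKM in WT (log2 fold change −0.12, SE 0.10).

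Creld2 (chr15:88819646-88826681, RefSeq GRCm38.p6), an ER stress-inducible protein with disulfide isomerase activity, had the smallest adjusted p of the 29. It measured 92.7 and 94.5 FPKM in knockout and 118.3 and 114.1 FPKM in WT. The gap between the groups was larger than the spread within either, and the log2 fold change was −0.31 (SE 0.09, 95% interval −0.51 to −0.11). With adjustment over all genes it did not pass (limma adjusted p = 0.114), and over 13 alternatives its adjusted p ran from 0.0671 to 0.594. Its sign was negative in all 13. Of the 8 tested members with an ERSE, Creld2, Hsp90b1 and Dnajc3 were lower in knockout without overlap, as were 21.7% of all tested genes. The groups of Hspa5, Pdia6, Calr, Canx and Syvn1 overlapped.

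Sdf2l1, a cofactor of BiP, measured 141.7 and 142.1 FPKM in knockout and 141.4 and 153.1 FPKM in WT. Manf, a secreted ER stress protein that binds BiP, measured 195.2 and 174.6 FPKM in knockout and 192.3 and 185.2 FPKM in WT. Both overlapped between groups (log2 fold changes −0.05, SE 0.09, and −0.03, SE 0.09). Other annotated genes share 9.25% of the exonic bases of Manf.

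Hyou1 (chr9:44379490-44392369), encoding the nucleotide exchange factor GRP170 that resets BiP, stood apart in level. It measured 0.824 and 1.08 FPKM in knockout and 1.94 and 1.69 FPKM in WT, while Dnajb9, the next lowest of the 9 lumenal genes, averaged 45.5 FPKM. No exonic base of Hyou1 is shared with another gene in GENCODE M21. Knockout and WT did not overlap, and the ratio of group means was 0.524, with a log2 fold change of −0.53 (SE 0.22, 95% interval −1.03 to −0.03, adjusted p = 0.286). Because of its low level the value moved with the pseudocount, from −0.87 at 0.1 to −0.20 at 5.

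The lectin chaperones hold glycoproteins until they fold and, with Pdia3, take part in loading MHC class I. Calr, encoding calreticulin, measured 188.9 and 163.4 FPKM in knockout and 185.6 and 203.6 FPKM in WT. Canx, encoding the membrane-bound calnexin, measured 42.8 and 43.0 FPKM in knockout and 49.3 and 39.9 FPKM in WT. Both overlapped between groups (log2 fold changes −0.15, SE 0.10, and −0.05, SE 0.13).

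Disulfide isomerases, which form and rearrange disulfide bonds in folding proteins, had log2 fold changes between −0.09 and 0.08. Pdia3, a partner of calnexin and calreticulin, measured 572.1 and 576.5 FPKM in knockout and 602.6 and 619.3 FPKM in WT. Its groups did not overlap, but the log2 fold change was only −0.09 (SE 0.08, 95% interval −0.26 to 0.08). P4hb, the archetypal isomerase PDI, measured 118.3 and 110.2 FPKM in knockout and 107.6 and 111.2 FPKM in WT. Pdia4 measured 94.5 and 83.7 FPKM in knockout and 88.0 and 80.4 FPKM in WT, and Pdia6 245.2 and 249.6 FPKM in knockout and 239.9 and 266.8 FPKM in WT. The groups of P4hb, Pdia4 and Pdia6 overlapped, with log2 fold changes of 0.06, 0.08 and −0.03. Summed over the 4 isomerases, FPKM was 1030.1 and 1019.9 in knockout and 1038.1 and 1077.6 in WT, with no overlap. The exact permutation p was 0.333, the smallest possible here, so this test could not have passed.

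ERAD removes misfolded proteins from the ER for proteasomal degradation. Sel1l (chr12:91806043-91849157), the scaffold of the HRD1 ubiquitin ligase complex, measured 13.5 and 11.9 FPKM in knockout and 16.9 and 19.2 FPKM in WT. Knockout lay below WT in both libraries, with a log2 fold change of −0.47 (SE 0.15, 95% interval −0.81 to −0.14, limma adjusted p = 0.147). Its sign was negative in 13 of 13 alternatives, with the adjusted p from 0.0824 to 0.526. Syvn1, the HRD1 ligase itself, measured 6.15 and 4.15 FPKM in knockout and 6.62 and 5.30 FPKM in WT and overlapped. Herpud1, which recruits clients to that complex, measured 223.6 and 270.3 FPKM in knockout and 206.2 and 247.7 FPKM in WT (log2 fold change 0.12, SE 0.12).

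Edem1, a mannose-trimming factor that marks glycoproteins for ERAD, measured 21.2 and 19.2 FPKM in knockout and 19.2 and 18.7 FPKM in WT, so its groups all but touched. The derlins, membrane proteins of the export channel, overlapped between groups. Derl1 measured 54.9 and 50.3 FPKM in knockout and 52.8 and 56.1 FPKM in WT, and Derl2 24.1 and 30.8 FPKM in knockout and 23.9 and 28.9 FPKM in WT. Derl3 ranged from 0.199 to 0.916 FPKM over the 4 libraries. None of the tested ERAD genes passed. The summed FPKM of the ERAD genes, most of it from Herpud1, was 365.4 ± 30.9 in knockout and 351.4 ± 36.0 in WT (SD, n = 2 each, exact permutation p = 0.667). With 2 against 2 this test cannot go below 0.333, so it could not have passed and decides nothing.

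The spread within groups is given beside the differences between them. A difference between 2 single libraries varies more than a difference between 2 group means, so the medians are not on the same scale. The median absolute difference on log2(FPKM + 1) between the 2 knockout libraries was 0.12 over the 29 genes and between the 2 WT libraries 0.13, and the median size of the fold change was 0.12. Over all tested genes the corresponding medians were 0.18, 0.15 and 0.16.

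Over the 8 tested members with an ERSE, the median log2 fold change was −0.13 (range −0.31 to 0.04), with 7 negative and 1 positive. Of all 9476 tested genes, 4692 were negative. Hspa5, Pdia6, Canx and Syvn1 changed sign under some alternatives, and Creld2, Hsp90b1, Dnajc3 and Calr stayed negative in all. Over the 17 tested members with a promoter entry and no ERSE it was 0.03, and the difference was not tested. Dnajb11 and Herpud1, the 2 with ERSE-II, had values of 0.03 and 0.12. Of all 14 tested genes with an ERSE in the promoter, 8 were members and 6 were not, among them Ero1b, an oxidase that recharges disulfide isomerases. Limma called 0 of the 14, and Creld2, Xlr3b and Pan2 had an unadjusted p under 0.05 (0.00662, 0.0237 and 0.0271). Of all tested genes, limma called 3.33%, and 15.5% had an unadjusted p under 0.05.

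Other genes of the pathway were read from lists of the same kind. Of 25 tested further ER folding enzymes, 0 passed, and those with the smallest p were Dnajc10, an ER disulfide reductase (log2 fold change −0.46, SE 0.17), and Ganab, a subunit of glucosidase II (−0.27, SE 0.12). Of 22 tested further ERAD components, 0 passed, led by Selenos, a selenoprotein of the export machinery (0.30, SE 0.09), and Os9, a lectin of the HRD1 complex (−0.32, SE 0.13). Of 34 tested genes for translocation, glycosylation and ER to Golgi transport, 0 passed, led by Sec61g, a subunit of the translocon (−0.35, SE 0.10), and Sec24d, a COPII coat protein (−0.43, SE 0.18). Of 25 tested further ATF4 targets, 0 passed, led by the glutamine transporter Slc38a2 (−0.50, SE 0.15) and the asparaginyl-tRNA synthetase Nars (0.25, SE 0.12). The medians of these 4 lists were −0.03, −0.05, 0.01 and 0.09.

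Among 18 tested genes of UPR and ISR signalling, 1 rose and 0 fell. Atf3, a transcription factor induced downstream of ATF4 and by many other stimuli, measured 10.3 and 7.49 FPKM in knockout and 0.591 and 0.480 FPKM in WT (log2 fold change 2.68, SE 0.23, limma adjusted p = 2.1e-04). Its rise in both knockout libraries stood beside log2 fold changes of 0.00 for Atf4 and −0.12 for Ddit3. Atf4 is controlled largely by translation, so its RNA is no measure of ATF4 activity, and the cause of the Atf3 rise was not tested. Markers of macrophages, conventional NK cells and neutrophils, and Fgb of the hepatocyte list, rose in the same libraries, with the sums given above, and their part in the Atf3 value was not tested. Of the 160 genes that the deposited table annotates to the KEGG pathway of protein processing in the ER, 25 are members. Of its 139 tested genes, 0 rose and 2 fell (1.44%, against 3.33% of all tested genes), namely the cytosolic heat shock genes Hspa1a and Hspa1b, near-identical copies whose reads may be shared. Of 37 tested genes annotated to the GO term for the ER unfolded protein response, 13 of whose genes are members, 1 rose (2.70%), which was Atf3, and 0 fell. Of 61 tested genes annotated to the GO response to ER stress, 17 of whose genes are members, 0 rose and 1 fell (1.64%), which was Kcnj8, a potassium channel subunit.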

How the data were processed

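ILC1s from the livers of 2 Cd200r knockout and 2 WT libraries were profiled by RNA-seq. The deposited table gives FPKM per gene, made by the authors. Per the submitters' processing notes, fastp, HISAT2, HTSeq, DESeq2 and R 3.2.0 were used on the build mm10, with no role stated. Any further scaling by the authors was not stated. Per the labels' protocols, libraries were made from amplified full-length cDNA. Strand was treated as unknown. Single-exon genes gave the depth: 76.4% to 79.0% of 63 to 86 low values per library lay within 0.05 of a whole read, at the depth chosen to maximise that share.

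FPKM was analysed as log2(FPKM + 1) for genes with a mean of at least 1, with limma 3.58.1 (R 4.3.3, two-sided, mean-variance trend, no covariate) and Benjamini-Hochberg adjustment over all 9476 genes at 0.05. Log2 fold changes are knockout minus WT. The fit was also run on data simulated from its own fitted spread (20 sets of 9476 genes, 5.15% of calls false), which does not check that spread. All 33 members are accounted for. Of each other pathway list, genes past the test are named, or else those with the 2 smallest p. Members and lists were chosen with earlier results of these data known; the KEGG and GO lists were added after the data were seen. Motif and overlap searches used RefSeq promoters and GENCODE M21, both of GRCm38.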

Additional observations from a re-analysis of the deposited data

How the results depend on the processing

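No paired analysis was possible because the groups share only replicate number 1. Of the 373 member values under 13 alternatives, 1 passed the test (Eif2ak3 without knockout replicate 1), and 14 of 29 members kept their sign throughout. Members called numbered 0 under every alternative except that one, so 0 to 1 with a library left out. Genes called numbered 316, but 0 with no filter (1898 of 18155 at an unadjusted p of 0.05), 70 without the mean-variance trend, and 217 to 553 with a library left out (553 without knockout replicate 1). With an arm of 1 library, that library is assumed to vary like the rest.

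Signs turned for 15 members. Atf4 was −0.0043 with TPM, −0.044 with quantile normalization, −0.0013 with median-ratio scaling and −0.022 after haemoglobin and mitochondrial genes were left out of the scaling; Ppp1r15a was −0.0050, −0.076, −0.0020 and −0.023 under the same 4 scalings. With quantile normalization, Hspa5 was −0.053, Dnajb11 −0.027 and P4hb −0.0068. With a library left out, Atf4 ran from −0.14 to 0.15, Sesn2 from −0.018 to 0.28, Ppp1r15a from −0.14 to 0.14, Hspa5 from −0.067 to 0.16 and Dnajb11 from −0.034 to 0.086. Sdf2l1 ran from −0.11 to 0.0047, Manf from −0.11 to 0.049, Canx from −0.195 to 0.10, Pdia4 from −0.0074 to 0.17 and Pdia6 from −0.11 to 0.044. Herpud1 ran from −0.015 to 0.26, Syvn1 from −0.43 to 0.046, Derl1 from −0.11 to 0.012 and Derl2 from −0.12 to 0.22. The knockout to WT ratio of summed FPKM ran from 0.912 to 1.10 for ATF4 and CHOP targets (0.999 with all libraries) and from 0.970 to 1.12 for ERAD genes (1.04). The cause of these shifts was not tested. Ppp1r15a (mean of 382 FPKM) made up nearly all of the first sum and Herpud1 (237 FPKM) most of the ERAD sum. These ratios therefore say little about the other genes of either group, such as Sel1l (log2 fold change −0.47). The median of all genes was between −0.02 and 0.00 under these scalings, and that of the members between −0.08 (quantile normalization) and −0.04. The 3 genes below the filter of 1 FPKM were not tested.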
